A study of Mus musculus with 9 samples.

Results

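H19, Meg3, Rian, Mirg, Malat1 and Neat1 are long noncoding RNAs, transcripts that act as RNA rather than through an encoded protein. They were taken by gene symbol from the deposited table of gene counts and make up 6 of its 35275 genes. Poly-A RNA had been sequenced from the gastrocnemius, a fast-contracting calf muscle, of female NSG mice, wild type by the labels, at an age of 12 weeks. NSG mice are an immunodeficient strain without mature lymphocytes. Extracellular vesicles (EVs), small membrane sacs shed by cells, were given through the tail vein at about 10 µg per injection, 10 times over 5 weeks, and muscle was collected 2 days after the last injection. In the group called MCF-10A here (MCF-10A EV in the plots, 4 libraries) the vesicles came from MCF-10A, a non-tumorigenic human breast epithelial line, and in the group called MDA-MB-231 (MDA-MB-231 EV in the plots, 5 libraries) from the breast cancer line MDA-MB-231, also human. All 9 mice thus received vesicles of human cells, and a difference between the groups cannot be assigned to one kind of vesicle. Each numbered library was taken as 1 mouse; where replicates were not separate animals, the p-values measure technical spread.

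H19 and Meg3 are imprinted, which means that transcription depends on the parent a copy came from. For both, only the copy inherited from the mother is transcribed. H19 sits beside the paternally expressed growth factor gene Igf2 and is abundant in fetal tissue and in skeletal muscle, where it is best known as the precursor of the microRNA miR-675. Meg3, Rian and Mirg lie one after the other on the same strand of the imprinted Dlk1-Dio3 domain, and carry small nucleolar RNAs and a large microRNA cluster. Malat1 and Neat1 are neighbours that stay in the nucleus. Malat1 is found in nuclear speckles, which store splicing factors, and Neat1 is the scaffold of paraspeckles, bodies that retain RNAs and proteins.

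None of the 6 RNAs passed the test across all genes. Levels of H19, Meg3, Rian, Mirg and Neat1 had higher means in the MDA-MB-231 group, by log2 fold changes from 0.28 to 0.61, and Malat1 had a lower mean, by a log2 fold change of -0.47. Malat1 alone had an unadjusted p under 0.05 in edgeR (in DESeq2, H19 did too), and the value without its most extreme library was -0.27. Between mice, Meg3 and Rian varied together, the only pair among the 6 RNAs whose correlation passed adjustment. The largest departures came from MCF-10A replicate 1, where H19 was low, and MCF-10A replicate 2, where Malat1 was high and Meg3, Rian and Neat1 were low.

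All 6 RNAs passed the filter on low counts. With the edgeR quasi-likelihood test, 0 of the 6 passed at a Benjamini-Hochberg adjusted p under 0.05, as did 0% of the 13901 genes tested in either direction. The smallest adjusted p of any gene was 0.133. At an unadjusted p under 0.05 there was 1 of the 6 (Malat1), against 12.8% of all genes tested, and this share is near that of the background. A log2 fold change above 0 was found for 5 of the 6, against 53.1% of all genes, whose median log2 fold change was 0.020. In 0 of the 6 did the groups fail to overlap, against 2.22% of all genes that lay wholly higher and 3.17% wholly lower in the MDA-MB-231 group. DESeq2 called 0.765% of 7447 genes higher and 2.30% lower, and none of the 6, while giving no adjusted p for Mirg.

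**Figure D1:**
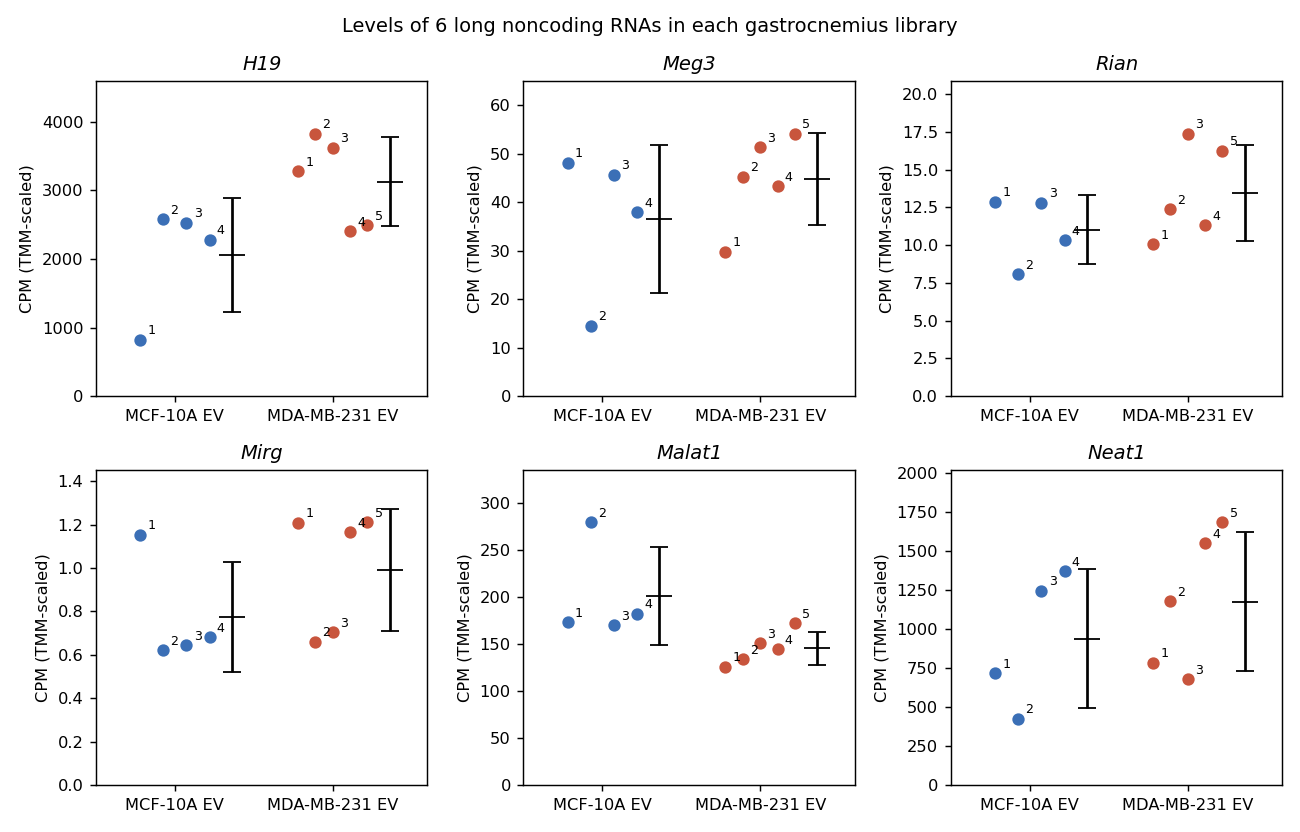
Levels of the 6 RNAs in each library, in CPM (counts scaled to library size with TMM factors), with numbers for the replicate and a bar for the group mean ± SD. The groups overlap for every RNA, with H19 of MCF-10A replicate 1 (821 CPM), Meg3 of MCF-10A replicate 2 (14.5 CPM) and Malat1 of MCF-10A replicate 2 (280 CPM) lying apart.

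The libraries held 13943465 to 25195826 counts, and MCF-10A replicate 2 was the smallest. The labelled tissue was matched by all 7 muscle fibre markers (among them Acta1, Ckm and Myh4), which summed to 158411 to 201717 CPM in the MCF-10A group and to 113624 to 143010 CPM in the MDA-MB-231 group. The sum of these fibre markers was therefore lower in all 5 MDA-MB-231 libraries than in all 4 others. Single markers need not follow the sum, and the groups overlapped for Tnnt3, a marker of this list. Endothelial markers (7 of 7 present) summed to 305 to 371 against 372 to 510 CPM, so that the groups nearly touched. Tendon markers (6 of 6 present) summed to 491 to 1154 against 1308 to 1653 CPM. Both sums lay higher in every MDA-MB-231 library. No marker of these 3 lists was at 0 in all libraries. The part of these differences in the levels of the 6 RNAs was not tested, and in bulk tissue fewer cells of a type cannot be told apart from less RNA per cell. Transcripts of pancreatic islets, with Ins2 at 44.4 to 93.6 CPM, were present in MCF-10A replicates 2 and 3 and MDA-MB-231 replicates 1, 3 and 4, against 0.236 to 0.367 CPM in the other 4.

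Per length of transcript, H19 was the most abundant of the 6 by far. Its mean level was 858 ± 357 FPKM (SD, n = 4; FPKM are fragments per kilobase of transcript, scaled to library size) in the MCF-10A group and 1424 ± 295 FPKM (SD, n = 5) in the MDA-MB-231 group. Neat1 followed at 43.4 ± 21.9 and 59.1 ± 23.0 FPKM, and Malat1 at 27.3 ± 6.58 and 21.7 ± 2.77 FPKM. Neat1 was above Malat1 in 8 of the 9 libraries, and in the MDA-MB-231 group their ranges did not touch (33.4 to 85.4 against 18.5 to 26.0 FPKM). In MCF-10A replicate 2 this order was turned, with Neat1 at 18.8 and Malat1 at 37.0 FPKM. The RNAs of the Dlk1-Dio3 domain were far lower, with Meg3 at 2.40 ± 1.01 and 3.22 ± 0.692 FPKM, Rian at 1.30 ± 0.280 and 1.74 ± 0.405 FPKM, and Mirg at 0.191 ± 0.0566 and 0.270 ± 0.0769 FPKM. Meg3 and Rian were level in MCF-10A replicate 2, at 0.922 FPKM each. Because one length per gene was used, a gene transcribed mainly as a shorter isoform has its FPKM understated.

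H19 (ENSMUSG00000000031) is annotated on the minus strand of mm10 chromosome 7, from 142575529 to 142578143, with an exonic length of 2286 bases. It hosts the hairpin of miR-675, which lies in an exon (exon 1 of transcript H19-202) at chr7:142577064-142577147, minus strand. Both mature strands are shown because they are the small RNAs this transcript is cut into, here with the seed (bases 2 to 8, which pair with targets) in capitals, from RefSeq on GRCm38.p6.
mmu-miR-675-5p: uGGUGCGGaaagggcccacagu
mmu-miR-675-3p: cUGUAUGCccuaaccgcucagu
The seeds of the strands differ, so they would pair with different targets. Neither mature microRNA was measured here, since poly-A libraries do not hold them. H19 is also known from other work to bind let-7 microRNAs. A perfect match to the let-7 seed (CTACCTC, transcript strand) was found 0 times in the 2286 bases of transcript H19-202, while 18.9% of 3328 noncoding transcripts of similar length (within 10%) hold 1 or more, which says only that these letters are not in this transcript.

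H19 ranked between 33 and 127 among all genes by FPKM in the 9 libraries. Among 5385 genes of long noncoding types it had the highest FPKM in 8 of the 9, and other noncoding types were not in this ranking. The exception was MCF-10A replicate 2, where Yam1, a muscle noncoding RNA, was at 4026 CPM against 487 to 1090 CPM elsewhere. H19 took 0.0747% to 0.407% of all counts of a library, on 14930 to 81363 counts. Its level was 821, 2578, 2529 and 2277 CPM in MCF-10A replicates 1 to 4, and 3279, 3825, 3620, 2401 and 2490 CPM in MDA-MB-231 replicates 1 to 5. Replicates 1 to 3 of the MDA-MB-231 group were above every MCF-10A library, while replicates 4 and 5 lay within the range of the other group. The lowest library, MCF-10A replicate 1, was 4.66-fold below the highest. H19 averaged 2051 ± 831 CPM (SD, n = 4) and 3123 ± 649 CPM (SD, n = 5), which gave a log2 fold change of 0.61 with an SE of 0.30 (edgeR adjusted p = 0.417). The exact permutation of the group labels, two-sided over all arrangements, gave p = 0.0714, where 0.00794 is the smallest it can give, and 0.214 after adjustment over the 6 RNAs. Without MCF-10A replicate 1 the log2 fold change was 0.34.

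The same library stood apart for genes of slow-contracting fibres. The 7 slow-fibre genes (among them Myh7 and Tnnt1) summed to 180 CPM in MCF-10A replicate 1 and to 700 CPM in MDA-MB-231 replicate 4, against 1897 to 3742 CPM in the other 7 libraries. None of the 7 was at 0 in all libraries. H19 ran with this sum over the 9 libraries, with r = 0.91 (exact permutation p = 0.00235) and rho = 0.78 (exact permutation p = 0.0172), and neither passed adjustment over the 72 relations of 6 RNAs with 12 marker lists (adjusted p = 0.127 and 0.413). Without those 2 libraries r was 0.71, and for deviations from the group means it was 0.96. H19 ran against the fibre markers as a whole (r = -0.85, rho = -0.68, exact permutation p = 0.00423 and 0.0503), a relation of r = -0.46 without MCF-10A replicate 1 and MDA-MB-231 replicate 2. It ran with endothelial markers (r = 0.80, rho = 0.70, exact permutation p = 0.00541 and 0.0433; r = 0.84 without MDA-MB-231 replicates 1 and 3). These also missed adjustment, at adjusted p = 0.126 for r in both. What part fibre composition has in the level of H19 was not tested. The genes most like H19 over the 9 libraries, of 11858 ranked by r, were Fgf1, a growth factor (r = 0.98), Runx2, a transcription factor of bone (0.97), and Tpm2, the tropomyosin beta of slow fibres and other muscle (0.97). Without MCF-10A replicate 1 these were 0.90, 0.81 and 0.83, and all points share the library and its scaling.

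Igf2, the reciprocally imprinted neighbour of H19, was at 46.5, 58.8, 53.0 and 48.2 CPM in MCF-10A replicates 1 to 4, compared with 59.6, 49.9, 66.8, 56.5 and 59.3 CPM in MDA-MB-231 replicates 1 to 5. It thus spanned a narrow range beside that of H19, and its log2 fold change was 0.18 ± 0.11 (SE; in edgeR, adjusted p = 0.495). The ratio of H19 to Igf2 counts was 17.6 in MCF-10A replicate 1 and between 42.0 and 76.7 in the other 8 libraries. The log2 ratio was higher by 0.54 in the MDA-MB-231 group, at 5.72 ± 0.35 (SD, n = 5) against 5.18 ± 0.70 (SD, n = 4), with an exact permutation p = 0.151, or 0.5 after adjustment over 6 ratios. Without MCF-10A replicate 1 the difference was 0.19. Nctc1, a noncoding RNA transcribed near the muscle enhancers that H19 and Igf2 share, was at 120, 83.5, 72.7 and 100 CPM in the MCF-10A group and 58.6, 74.2, 58.9, 93.6 and 72.9 CPM in the MDA-MB-231 group. It was highest where H19 was lowest, in MCF-10A replicate 1, and lowest in MDA-MB-231 replicates 1 and 3, where H19 was high. Over the 9 libraries H19 and Nctc1 had r = -0.82 (exact permutation p = 0.00286, adjusted 0.0171 over 6 pairs of an RNA and a neighbour chosen after their values were seen) and rho = -0.73 (p = 0.0311, adjusted 0.0553, exact permutation). Without MCF-10A replicates 1 and 4, r was -0.66. H19 and Igf2 had r = 0.59 (exact permutation p = 0.0844, adjusted 0.0887) and rho = 0.57 (exact permutation p = 0.121, adjusted 0.145), and r was -0.061 without MCF-10A replicate 1 and MDA-MB-231 replicate 3, so that relation rests on those libraries. The log2 fold change of Nctc1 itself was -0.40 ± 0.17 (SE; edgeR adjusted p = 0.359), and -0.26 without MCF-10A replicate 1.

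**Figure D2:**
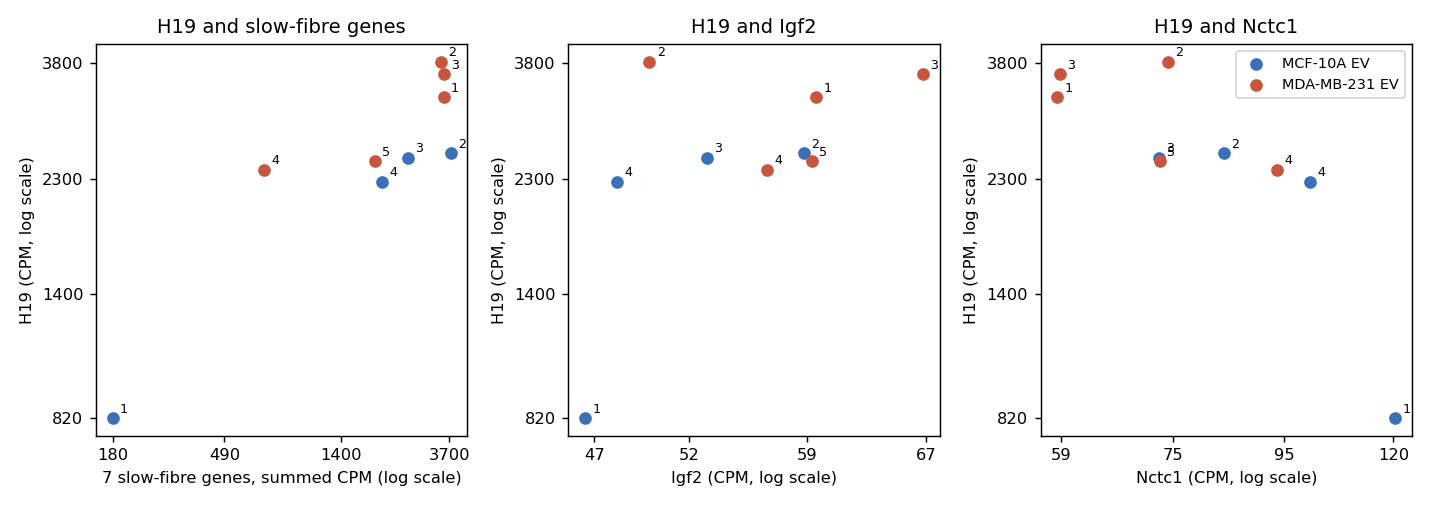
H19 (vertical axes, CPM, log scale) against the summed level of 7 slow-fibre genes, against Igf2 and against Nctc1 (horizontal axes, CPM, log scale), with 1 point per library and its replicate number. MCF-10A replicate 1, at 821 CPM of H19, lies at the low end of slow-fibre genes (180 CPM) and at the high end of Nctc1 (120 CPM).

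Of the wider H19 and Kcnq1 imprinted region, 19 of 27 listed neighbours were tested and 0 passed in edgeR. At an unadjusted p under 0.05 there were 3 higher and 2 lower, against 5.95% and 6.86% of all genes, and their median log2 fold change was 0.11. Mrpl23, a mitochondrial ribosomal protein gene beyond H19 on the chromosome, was at 65.2 ± 2.33 against 54.0 ± 1.67 CPM, which came to a log2 fold change of -0.27 (SE 0.08) with an adjusted p of 0.260 in edgeR and 0.0135 in DESeq2. Cd81, a tetraspanin gene, had one of 0.22 ± 0.08 (SE; edgeR adjusted p = 0.321). The groups did not overlap for either gene. Cdkn1c, a maternally expressed inhibitor of the cell cycle, was at a log2 fold change of 0.42 ± 0.26 (SE), and of 0.17 without MDA-MB-231 replicate 3. Among 4 reported targets of miR-675, 0 passed and 1 was higher at an unadjusted p under 0.05, against 5.95% of all genes. This was Cdc6, a replication factor, at 1.21 ± 0.46 on the log2 scale. Its level was low, at means of 0.279 CPM in the MCF-10A group and 0.673 CPM in the MDA-MB-231 group. The median log2 fold change of the 4 targets was 0.17. Smad1, a mediator of BMP signalling, was at 0.27 ± 0.15 (SE), and at 0.13 without MCF-10A replicate 2.

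Meg3 (ENSMUSG00000021268) is annotated on the plus strand of mm10 chromosome 12, from 109541001 to 109571726. Rian (ENSMUSG00000097451) follows from 109603940 to 109661716 after a gap of 32213 bases, and Mirg (ENSMUSG00000097391) from 109729764 to 109749460 after a further 68047 bases. RefSeq places 54 microRNA hairpins in the 208460 bases between the start of Meg3 and the end of Mirg. Within the annotated spans Meg3 holds 1 hairpin, in an exon, and the mature sequence of a further microRNA, miR-1906, also in an exon; Rian holds 3, none in an exon, and Mirg 14, of which 4 are in an exon. The following mature sequences (RefSeq, GRCm38.p6, seed in capitals) are shown to place a known microRNA in the span of each gene. The last 2 are shown because they were the one pair in the 3 spans with a common seed.
mmu-miR-770-5p (Meg3): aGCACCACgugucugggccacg
mmu-miR-370-3p (Rian): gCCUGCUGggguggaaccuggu
mmu-miR-134-5p (Mirg): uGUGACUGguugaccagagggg
mmu-miR-410-3p (Mirg): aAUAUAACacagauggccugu
mmu-miR-453 (Mirg): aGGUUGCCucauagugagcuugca
mmu-miR-496a-5p (Mirg): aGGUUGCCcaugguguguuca
The 26 mature microRNAs within the span of Mirg carry 25 different seeds. None of these microRNAs was measured here. miR-134 is known from neurons, where it limits dendritic spine size, and miR-370 and miR-410 belong to the same maternally expressed cluster.

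The promoter of Meg3 is shown because Meg3 and Rian varied together in these libraries and the RNAs of the domain are thought to be read as one unit. It is the window chr12:109540746-109541045, plus strand, of RefSeq on GRCm38.p6, whose start site lies 5 bases before that of the deposited table. Capitals mark, from left to right, a CCAAT box, a cAMP response element (CRE) and a TATA box.
Meg3 promoter: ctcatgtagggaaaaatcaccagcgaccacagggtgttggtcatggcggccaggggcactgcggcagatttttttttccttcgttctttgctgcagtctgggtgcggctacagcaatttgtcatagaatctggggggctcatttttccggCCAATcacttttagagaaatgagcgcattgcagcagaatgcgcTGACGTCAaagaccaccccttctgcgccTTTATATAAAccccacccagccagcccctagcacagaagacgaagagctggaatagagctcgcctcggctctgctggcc
Counted from the start site, CCAAT begins at -100, the CRE letters TGACGTCA at -57 and TATAAA at -25, the last overlapping a second TATAAA that reads on the opposite strand from -29. Searched on both strands, TGACGTCA is present in 1.79% of 32851 promoter windows of 300 bases, TATAAA in 13.6% and CCAAT in 37.4%. The window shown holds 13 CpG sites, against a median of 7, and 37.9% of promoters hold at least 13. A second window of Meg3, whose start site lies 4397 bases after that of the deposited table, holds 1 CpG site and none of the marked motifs. The window of Rian holds 0, as do 5.43% of promoters. A match describes the letters only.

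Meg3 was at 48.2, 14.5, 45.7 and 38.0 CPM in MCF-10A replicates 1 to 4, compared with 29.9, 45.3, 51.4, 43.3 and 54.2 CPM in MDA-MB-231 replicates 1 to 5. MCF-10A replicate 2 was the lowest of the 9 and MDA-MB-231 replicate 1 the next, and the other 7 lay close together. Meg3 averaged 36.6 ± 15.3 CPM (SD, n = 4) and 44.8 ± 9.46 CPM (SD, n = 5), which gave a log2 fold change of 0.29 with an SE of 0.30 (edgeR adjusted p = 0.720), and of 0.026 without MCF-10A replicate 2.

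Rian, best known as the host of many small nucleolar RNAs, was at 12.9, 8.08, 12.8 and 10.3 CPM in the MCF-10A group and at 10.1, 12.4, 17.4, 11.3 and 16.3 CPM in the MDA-MB-231 group. The 2 highest libraries were MDA-MB-231 replicates 3 and 5, which were also the 2 highest for Meg3, and the 2 lowest were again MCF-10A replicate 2 and MDA-MB-231 replicate 1. The groups averaged 11.02 ± 2.29 CPM (SD, n = 4) and 13.5 ± 3.18 CPM (SD, n = 5), which gave a log2 fold change of 0.28 with an SE of 0.19 (edgeR adjusted p = 0.543). It was 0.16 without MCF-10A replicate 2 and 0.18 without MDA-MB-231 replicate 3. The highest library was 2.15-fold above the lowest for Rian and 3.73-fold for Meg3.

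Mirg, which hosts the distal part of the microRNA cluster, had only 8 to 30 counts per library. It was at 1.15, 0.622, 0.645 and 0.682 CPM in the MCF-10A group and at 1.21, 0.660, 0.703, 1.16 and 1.21 CPM in the MDA-MB-231 group. The libraries formed a set of 4 above 1 CPM and a set of 5 near 0.7 CPM, with libraries of both groups in each. Counting error is large at this depth, since the exact 95% Poisson interval was 3.45 to 15.8 for 8 counts and 20.2 to 42.8 for 30. The log2 fold change was 0.35 ± 0.33 (SE; in edgeR, adjusted p = 0.680) and 0.60 without MCF-10A replicate 1, and a difference was not detectable at this depth.

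Meg3 and Rian had r = 0.86 (exact permutation p = 1.93e-05) and rho = 0.98 (exact permutation p = 4.96e-05) over the 9 libraries, which passed adjustment over the 15 pairs of the 6 RNAs (adjusted p = 0.000289 and 0.000744). The relation did not rest on the extreme libraries, with r = 0.93 without MCF-10A replicate 2 and MDA-MB-231 replicate 1, and it held for deviations from the group means (r = 0.84). No other pair passed adjustment. Meg3 and Neat1 had r = 0.67 and rho = 0.27 (exact permutation p = 0.0416 and 0.493, adjusted 0.312 and 0.868), and r was -0.28 without the same 2 libraries. Meg3 and Mirg had r = 0.30 and rho = 0.37 (exact permutation p = 0.530 and 0.336, adjusted 0.723 and 0.841). That r was 0.38 without the same 2 libraries and -0.13 without MCF-10A replicate 2 alone. Rian and Mirg had r = 0.18 and rho = 0.30 (exact permutation p = 0.634 and 0.437, adjusted 0.749 and 0.868). Here r was 0.16 without MCF-10A replicate 2 and MDA-MB-231 replicate 3, and -0.088 without the former alone. Neither relation was detected, on 8 to 30 counts of Mirg. The 4 libraries with Mirg above 1 CPM spanned 29.9 to 54.2 CPM of Meg3, and the 5 below spanned 14.5 to 51.4 CPM.

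**Figure D3:**
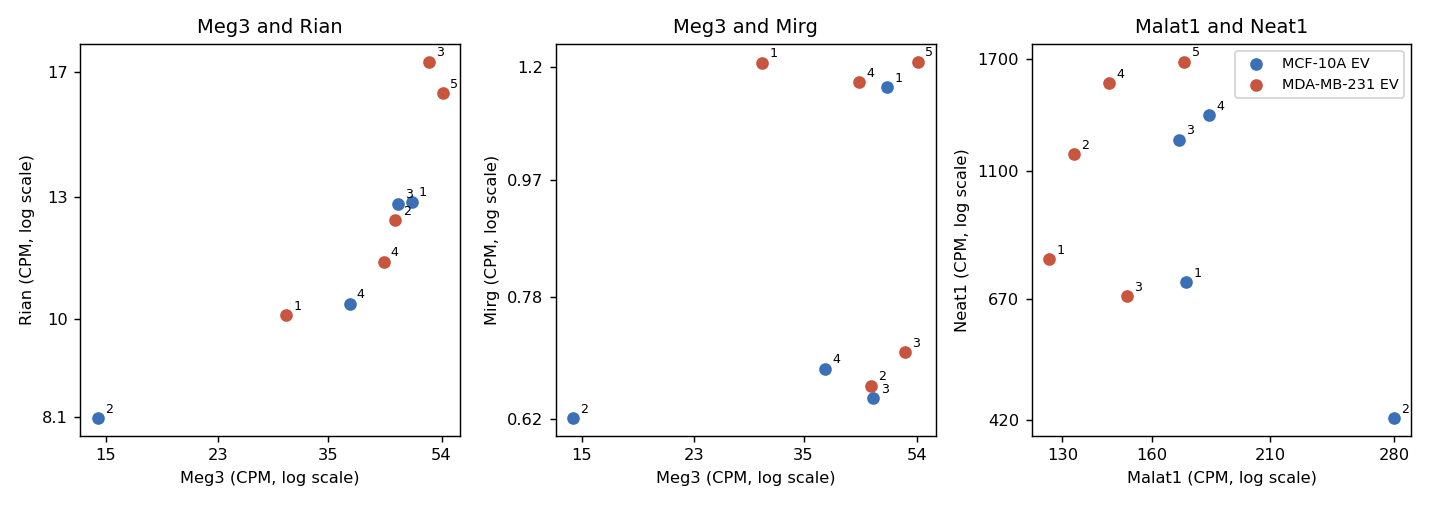
Meg3 against Rian, Meg3 against Mirg, and Malat1 against Neat1 in CPM (log scales), with 1 point per library and its replicate number. Points for Meg3 and Rian lie along a line from MCF-10A replicate 2 (14.5 and 8.08 CPM) to MDA-MB-231 replicate 5 (54.2 and 16.3 CPM). Mirg lies in an upper and a lower row, a split that was not tested.

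Within a library, 1 count of Meg3 went with a similar number of Rian counts in most mice. The ratio of Rian to Meg3 counts was 0.261 to 0.338 in 8 libraries and 0.556 in MCF-10A replicate 2. The log2 ratio differed by -0.12 between the groups (exact permutation p = 0.825, adjusted 0.889 over 6 ratios), at -1.73 ± 0.17 (SD, n = 5) in the MDA-MB-231 group and -1.61 ± 0.51 (SD, n = 4) in the MCF-10A group. The log2 ratios of Mirg to Meg3 and of Rian to Mirg differed by -0.072 and -0.048 (exact permutation, adjusted p = 0.889 for both). H19 and Meg3, both maternally expressed but on different chromosomes, showed no detectable relation, with a log2 ratio higher by 0.31 in the MDA-MB-231 group (exact permutation p = 0.667) and a correlation of r = -0.12 (rho = -0.083, exact permutation p = 0.649 and 0.843, adjusted 0.749 and 0.973; r = 0.065 without MCF-10A replicate 1 and MDA-MB-231 replicate 2).

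Of the protein-coding genes of the Dlk1-Dio3 domain, which are expressed from the paternal copy, Dlk1 alone was high enough to test. Dlk1, a membrane protein that restrains fat cell formation and takes part in muscle growth, was at 1.65 ± 0.386 CPM (SD, n = 4) and 2.53 ± 1.09 CPM (SD, n = 5), which gave a log2 fold change of 0.61 with an SE of 0.34 (edgeR adjusted p = 0.474), and of 0.39 without MDA-MB-231 replicate 5. It was highest in MDA-MB-231 replicates 5 and 3, at 3.96 and 3.11 CPM, and lowest in MDA-MB-231 replicate 1, at 1.05 CPM. Dlk1 and Rian had r = 0.79 and rho = 0.77 (exact permutation p = 0.0114 and 0.0214, adjusted 0.0341 and 0.0553 over the 6 pairs), with r = 0.74 without MDA-MB-231 replicates 1 and 5. These 6 pairs were chosen after their values were seen, and the adjustment does not cover that choice. Dlk1 and Meg3 had r = 0.66 and rho = 0.78 (exact permutation p = 0.0442 and 0.0172, adjusted 0.0663 and 0.0553), with r = 0.64 without the same 2. Rtl1, a retrotransposon-derived gene that lies antisense to part of the microRNA cluster, had 2 to 11 counts, and Dio3, which inactivates thyroid hormone, had 0 to 10. Over 9 tested neighbours of the domain the median log2 fold change was -0.036 and 0 passed. At an unadjusted p under 0.05 there was 1, lower, against 6.86% of all genes (Yy1, a zinc finger factor, -0.26 ± 0.11 on the log2 scale). Slc25a29, a mitochondrial amino acid carrier, was at 0.40 ± 0.19 (SE).

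The genes most like Meg3 over the 9 libraries were Dlg4, a postsynaptic scaffold (r = 0.98), Bcan, a proteoglycan of nervous tissue (0.97), and Dscr3, a part of the retriever sorting complex (0.97). Without MCF-10A replicate 2 these were 0.90, 0.89 and 0.88. The genes most like Rian were Tub (r = 0.95), Lgi2 (0.91) and Fgf2, a growth factor (0.91), which without that library were at 0.93, 0.92 and 0.85. Those nearest to Mirg were Pir (0.91), Lysmd2 (0.89) and Rassf4 (0.87), and at its few counts they are given as a description only. Of the 12 marker lists, macrophage markers (5 of 6 listed, 65.1 to 136 against 95.7 to 116 CPM, none at 0 in all libraries) alone reached an unadjusted p under 0.05 with Meg3, at r = 0.72 and rho = 0.50 (exact permutation p = 0.0335 and 0.178, adjusted 0.402 and 0.638). That r was 0.68 for deviations from the group means and 0.18 without MCF-10A replicates 1 and 2, on which it rests. Meg3 had r = -0.73 with satellite cell markers (rho = -0.28, exact permutation p = 0.0660 and 0.463, adjusted 0.477 and 0.833; r = -0.18 without MCF-10A replicates 2 and 4). It had r = -0.67 with pericyte and smooth muscle markers (rho = -0.15, exact permutation p = 0.0729 and 0.708, adjusted 0.477 and 0.910; r = 0.32 without MCF-10A replicates 1 and 2). No relation of Meg3 with islet transcripts was detected (r = -0.37, rho = -0.32, exact permutation p = 0.386 and 0.410, adjusted 0.758 and 0.798; r = -0.31 without MCF-10A replicate 4 and MDA-MB-231 replicate 5).

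Malat1 (ENSMUSG00000092341) is annotated on the minus strand of mm10 chromosome 19, from 5795690 to 5802672, with a length of 6983 bases. Neat1 (ENSMUSG00000092274) lies on the same strand from 5824708 to 5845478, with a length of 20771 bases and a gap of 22035 bases between the genes. Malat1 is known to end without a poly-A tail, in a genomically encoded A-rich tract that folds with upstream U-rich motifs into a triple helix, and the long form of Neat1 ends in the same way. The tract is shown because these libraries were selected with poly-T beads. It is the stretch chr19:5795978-5796067, minus strand, of transcript Malat1-201 (GENCODE M21), with the run of 12 As in capitals.
Malat1 A-rich tract: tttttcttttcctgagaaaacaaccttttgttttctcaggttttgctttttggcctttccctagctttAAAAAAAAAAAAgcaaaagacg
The run lies 298 bases before the annotated end, and 4.05% of 55402 noncoding transcripts of all lengths hold a run at least as long. Transcripts were not matched for length, so this share does not say how rare the run is among transcripts near 6983 bases. Longer runs were present in a Meg3 transcript of 14548 bases (16 As) and in a Rian transcript of 8089 bases (15 As). In the Neat1 transcript of 20771 bases the longest run was 7 As. How far selection by the tract rather than by a tail shaped the counts of Malat1 and Neat1 was not tested.

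Malat1 was at 173, 280, 170 and 182 CPM in MCF-10A replicates 1 to 4, compared with 126.05, 134, 151, 145 and 172 CPM in MDA-MB-231 replicates 1 to 5, on 2833 to 4222 counts. MCF-10A replicate 2 was far above the rest. Replicates 1 to 4 of the MDA-MB-231 group lay below every MCF-10A library, and replicate 5 lay between the 2 lowest of them. Malat1 averaged 201 ± 52.5 CPM (SD, n = 4) and 146 ± 17.8 CPM (SD, n = 5), which gave a log2 fold change of -0.47 with an SE of 0.16 (edgeR adjusted p = 0.295). The unadjusted p in edgeR was 0.0112. DESeq2 gave an adjusted p of 0.0837. The exact permutation of group labels gave p = 0.0238, or 0.143 after adjustment over the 6 RNAs. Without MCF-10A replicate 2 the log2 fold change was -0.27. In rank order Malat1 ran with the fibre markers and against the tendon markers (rho = 0.80 and -0.87, r = 0.55 and -0.56, exact permutation p of rho = 0.0138 and 0.00451, of r = 0.128 and 0.127), none of which passed adjustment over the 72 relations (adjusted p of rho = 0.413 and 0.325). For deviations from the group means r was -0.049 and 0.011, and it was 0.71 without MCF-10A replicate 1 and MDA-MB-231 replicate 2, and -0.94 without MCF-10A replicates 1 and 4. Their part in the level of Malat1 was not tested.

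Neat1 was at 716, 423, 1244 and 1368 CPM in the MCF-10A group and at 783, 1177, 678, 1547 and 1682 CPM in the MDA-MB-231 group. Both groups held low and high libraries, with 2 of the 5 MDA-MB-231 libraries above every MCF-10A library and 1 of the 4 MCF-10A libraries below every MDA-MB-231 library. The average was 938 ± 445 CPM (SD, n = 4) and 1173 ± 446 CPM (SD, n = 5), which gave a log2 fold change of 0.32 with an SE of 0.38 (edgeR adjusted p = 0.747). With 1 library left out the log2 fold change stayed above 0, from 0.080 without MCF-10A replicate 2 to 0.56 without MCF-10A replicate 4. It was -0.16 without MCF-10A replicates 1 and 2, a choice made after seeing the data. Those were the 2 lowest libraries of that group, so leaving them out had to lower the value. Neat1 was the most variable of the 6 RNAs between mice of a group, with a biological coefficient of variation of 39.0%, above 92.9% of all genes tested, against 18.2% for Malat1.

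No relation between Malat1 and Neat1 was detected, with r = -0.47 and rho = -0.15 (exact permutation p = 0.208 and 0.708, adjusted 0.604 and 0.966), and r was 0.063 without MCF-10A replicate 2 and MDA-MB-231 replicate 1. The ratio of Neat1 to Malat1 counts was 1.51 in MCF-10A replicate 2, where Malat1 was highest and Neat1 lowest, and 4.14 to 10.7 in the other 8 libraries. The log2 ratio was higher by 0.82 in the MDA-MB-231 group, at 2.93 ± 0.52 (SD, n = 5) against 2.11 ± 1.08 (SD, n = 4), with an exact permutation p = 0.167, adjusted 0.5. Without MCF-10A replicate 2 the difference was 0.32. Neat1 ran against satellite cell markers (7 listed, 61.7 to 101 against 66.3 to 73.6 CPM, none at 0 in all libraries), with r = -0.81 and rho = -0.68 (exact permutation p = 0.00703 and 0.0503, adjusted 0.126 and 0.518) and r = -0.61 without MCF-10A replicates 2 and 4. Of these 7 markers, 4 had a mean of at least 1 CPM in the MCF-10A group and 5 in the MDA-MB-231 group. The genes most like Neat1 were Slc25a33, a mitochondrial nucleotide carrier (r = 0.99), Clec2d, a lectin (0.97), and Cdk10, a kinase (0.97), at 0.99, 0.95 and 0.94 without MCF-10A replicate 2. Those most like Malat1 were Rps6kb1, the S6 kinase (r = 0.98), Clasp1, a microtubule protein (0.97), and Ikzf2, a zinc finger factor (0.96), at 0.94, 0.88 and 0.90 without the same library.

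**Figure D4:**
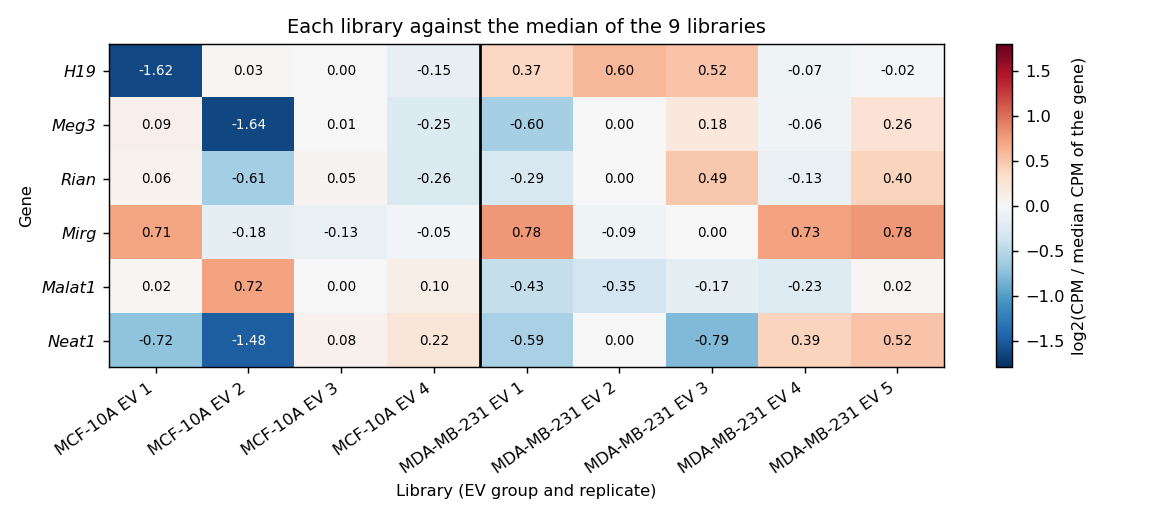
Each RNA (rows) in each library (columns) as log2 of its CPM over its own median across the 9 libraries. H19 is lowest in MCF-10A replicate 1, and in MCF-10A replicate 2 Meg3, Rian and Neat1 are at their lowest while Malat1 is at its highest (280 CPM).

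Among 13 tested neighbours of Malat1 and Neat1 on chromosome 19, 0 passed, with 3 higher and 1 lower at an unadjusted p under 0.05, against 5.95% and 6.86% of all genes, and a median log2 fold change of 0.089. Sipa1, a regulator of Rap GTPases (0.35 ± 0.10 on the log2 scale), and Rela, a subunit of NF-κB (0.26 ± 0.09), had the smallest p, with an edgeR adjusted p of 0.261 and 0.310. Frmd8, on the Neat1 side, was at a log2 fold change of 0.23 ± 0.13. Neat1 and Frmd8 had r = 0.60 and rho = 0.72 (exact permutation p = 0.0887 and 0.0369, adjusted 0.0887 and 0.0553), with r = 0.79 without MDA-MB-231 replicates 1 and 5.

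None of the genes known to work with these RNAs passed in edgeR. Of 27 tested paraspeckle proteins, partners of Neat1, 0 passed and 3 were lower at an unadjusted p under 0.05, against 6.86% of all genes, with a median log2 fold change of -0.001. Hnrnph1, at -0.23 ± 0.09 on the log2 scale, and Hnrnpul1, at -0.27 ± 0.11 (-0.17 without MCF-10A replicate 2), both RNA-binding proteins, had the smallest p. Of 31 nuclear speckle and SR proteins, which share their compartment with Malat1, 0 passed, with 1 higher (Srsf3, a splicing factor, 0.27 ± 0.12) and 1 lower (Srpk1, which phosphorylates SR proteins, -0.23 ± 0.10) at an unadjusted p under 0.05, against 5.95% and 6.86% of all genes, and a median of -0.005. Of 17 genes that process microRNAs, 0 passed and 3 were lower at an unadjusted p under 0.05, against 6.86% of all genes, among them Dicer1, which cuts hairpins in the cytoplasm (-0.33 ± 0.11), and Drosha, which cuts them out of the primary transcript (-0.48 ± 0.16, and -0.29 without MCF-10A replicate 2). The median of that list was -0.042.

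Of 11 genes of Polycomb repressive complex 2, a histone methylating complex reported to bind Meg3 and other long noncoding RNAs, 0 passed, with 1 higher and 1 lower at an unadjusted p under 0.05, against 5.95% and 6.86% of all genes, and a median log2 fold change of -0.037. Eed, a core subunit, was at -0.40 ± 0.14 on the log2 scale and Phf19, an accessory subunit, at 0.76 ± 0.30. Of 14 genes that maintain imprints, 0 passed and 2 were higher at an unadjusted p under 0.05, against 5.95% of all genes, with a median of 0.079. These were Uhrf1, which brings maintenance methylation to replicated DNA (0.94 ± 0.31), and Zfp57, a zinc finger protein that protects imprints (1.04 ± 0.39), both low, at means of 0.672 to 2.02 CPM. Of 33 imprinted genes of other domains, 0 passed in edgeR, with 1 higher and 5 lower at an unadjusted p under 0.05, against 5.95% and 6.86% of all genes, and a median of 0.028. Slc38a4, an amino acid transporter, was at 82.7 ± 17.7 against 47.4 ± 11.2 CPM, which came to a log2 fold change of -0.80 (SE 0.19) with an adjusted p of 0.247 in edgeR and 0.0108 in DESeq2, and Asb4, a ubiquitin ligase adaptor, was at -0.47 ± 0.16. Of 22 other long noncoding RNAs, 0 passed, 1 was higher at an unadjusted p under 0.05 (Mir22hg, the host of miR-22, 0.46 ± 0.18), against 5.95% of all genes, and the median was 0.098. Snhg5, a host of small nucleolar RNAs, was at 0.51 ± 0.27, and at 0.27 without MCF-10A replicate 2.

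**Figure D5:**
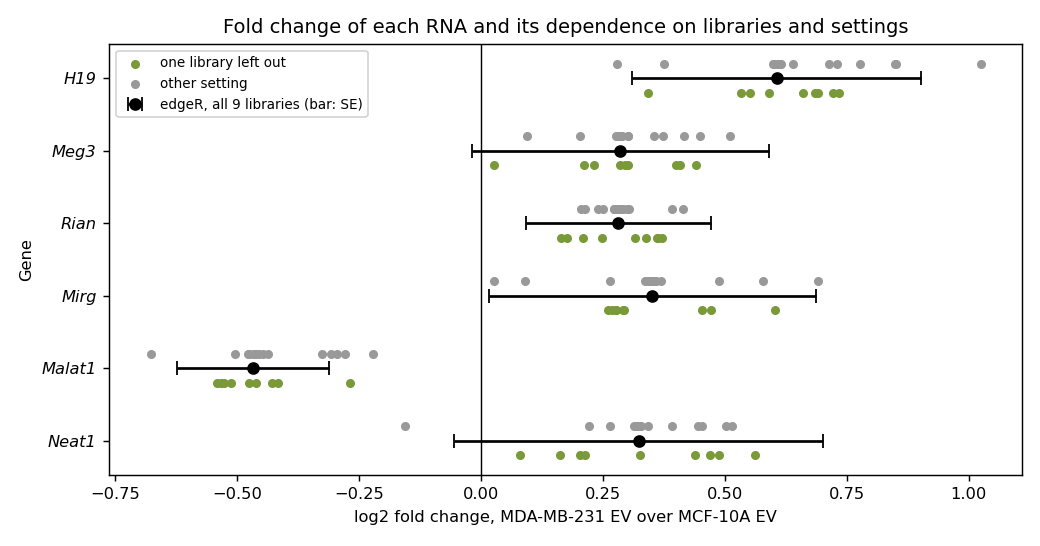
log2 fold change of each RNA, the MDA-MB-231 group over the MCF-10A group, from edgeR with all 9 libraries (black, bar for the SE), with 1 library left out (green) and under the other settings (grey). H19 stays above 0 (0.34 to 0.73 with 1 library left out) and Malat1 below 0 (-0.54 to -0.27). Neat1 reaches -0.16 under a setting, chosen after seeing the data, that leaves out both MCF-10A replicates 1 and 2.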

How the data were processed

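Poly-A RNA from gastrocnemius was sequenced, with mRNA bound to poly-T beads per the labels' protocols. The authors deposited whole-number counts per gene on mm10. They also deposited FPKM values, each equal to the count divided by gene length and by the library's total within 0.1% for 100% of 161066 values. The submitters' processing notes list HTSeq 0.6.1, STAR 2.5, TopHat, edgeR and DESeq2, with no role for any. Use of strand in counting is not given in the sources used here. Genes that overlap Meg3, Rian and Malat1 in the table held 4 counts at most in all libraries together. The deposited table's gene lengths were used as other annotation, and 27 symbols turned into dates were restored by gene ID.

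Counts were tested with edgeR 4.0.16 (quasi-likelihood, TMM factors 0.911 to 1.06, filterByExpr with minimum count 10 and minimum total 15, two-sided) in R 4.3.3, with DESeq2 1.42.0 and limma 3.58.1 as alternatives. Fold changes (log2) are positive where the MDA-MB-231 EV mean was higher. CPM uses TMM-scaled sizes, and correlations use log2 CPM with prior count 2. Ratios are of counts within a library (0.5 added on the log2 scale). p-values of correlations come from all pairings of the 9 libraries. Of the 6 pairs of an RNA and a neighbour, 1 is not reported here, and p-values stay adjusted over all 6. The labels name no batch. On simulated data edgeR recovered 14.9% of genes changed 1.5-fold and 67.2% of those changed 2-fold. False calls there were 4.92% of all calls in edgeR and 21.1% in DESeq2. The RNAs and gene lists were chosen with earlier results of these data known. Named genes are the 6 RNAs, the 3 genes of highest r with each, genes beside them and the genes of smallest p of each list. Alternatives were other scaling, other filters, voom, FPKM, the replicate number as a block and leaving out libraries. Intervals cover counting error only. Figures were drawn with matplotlib 3.10.9.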

Additional observations from a re-analysis of the deposited data

Results flagged for a closer look

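Dixon's test at the 95% level was applied to the 6 levels and 6 ratios in each group, 24 in all, and picked out 4 values that lay far from the rest of their group, in 2 libraries; chance alone picks out about 1 in 20. Malat1 was at 280 CPM in MCF-10A replicate 2, above 170 to 182 CPM in the other 3 libraries of its group. In the same library the log2 ratio of Rian to Meg3 was -0.84, above -1.90 to -1.83 in the other 3. The log2 ratio of H19 to Igf2 was 4.14 in MCF-10A replicate 1, below 5.45 to 5.58 in the other 3. H19 itself, at 821 CPM in that library, just missed. Its gap to the next value, over the range of the group, was 0.8288 against a critical 0.829. Mirg was at 1.15 CPM in that library, on 21 counts, above 0.622 to 0.682 CPM in the rest of its group.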

How the results depend on the processing

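The test across all genes depended on the tool: DESeq2 called 228 genes, voom 0, and edgeR 0 to 2 with 1 library left out, with 2 without MCF-10A replicate 4. With 1 library left out, the log2 fold change ranged from 0.34 to 0.73 for H19, from 0.026 to 0.44 for Meg3, from 0.16 to 0.37 for Rian, from 0.26 to 0.60 for Mirg, from -0.54 to -0.27 for Malat1 and from 0.080 to 0.56 for Neat1. None of the 6 passed in any of these. Dropping MCF-10A replicates 1 and 2 together, a choice made after seeing the data, gave -0.16 for Neat1 and 0.057 for Kcnq1ot1, a noncoding RNA of the H19 region at -0.47 with all libraries and -0.63 to -0.033 with 1 left out. Ratio differences with 1 library left out ran from -0.22 to 0.14 for Rian to Meg3, from -0.30 to 0.25 for Mirg to Meg3, from -0.25 to 0.13 for Rian to Mirg (0.062 with 5 added to each count) from -0.26 to 0.86 for H19 to Meg3, from 0.19 to 0.67 for H19 to Igf2 and from 0.32 to 1.09 for Neat1 to Malat1. The cause was not tested. Same-numbered libraries of the groups did not deviate together (r from -0.30 to 0.080 over genes), so the numbers were not taken to pair them. With the replicate number as a block the log2 fold change was 0.78 for H19, 0.30 for Meg3, 0.20 for Rian, 0.26 for Mirg, -0.51 for Malat1 and 0.22 for Neat1, with 0 genes passing. With unscaled library sizes the median of all genes was 0.15 in place of 0.020. Depth limits Mirg, on 8 to 30 counts.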
